A study of Mus musculus with 6 samples.

Results

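After 3 days with RANKL (receptor activator of nuclear factor kappaB ligand), macrophage precursors in culture held far more RNA of certain genes that digest bone, fuse cells and grip the bone surface, among them Mmp9, Ctsk, Ocstamp and Itgb3, and far less of many genes that mark inflammatory monocytes and phagocytic macrophages. The comparison set bone marrow-derived macrophages given M-CSF (macrophage colony-stimulating factor) and RANKL (+R) against the same kind of cells given M-CSF alone (-R), and it took every gene of the deposited table whose mean over these 4 libraries was at least 0.5 RPKM (reads per kilobase of transcript, scaled to library depth). That rule kept 11603 of 24940 genes. At its edge, Zbed5 entered with a mean of 0.50025 RPKM and Tmem116 stayed out with 0.4995 RPKM.

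Both groups came from bone marrow flushed out of the leg bones of mice, whose age the labels give as 6 to 8 weeks. Non-adherent marrow cells, after 16 h in 5 ng/mL M-CSF, were grown for 3 days in 30 ng/mL M-CSF, and the adherent cells were the macrophage precursors. The -R cells then had 3 days of 30 ng/mL M-CSF and the +R cells had 3 days of 30 ng/mL M-CSF with 100 ng/mL RANKL, with no genetic change in either group. The labels name C57BL/6 mice and the study's methods ICR males, so the strain is uncertain, and nothing says whether the 2 replicates of a group came from separate mice or cultures, so p-values measure the spread between these libraries, which may be technical. The remaining group, with a leaf extract added to RANKL, took part only in estimating the spread. The precursors are a mixed population, and the labels describe no sort.

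Osteoclasts are the multinucleated cells that resorb bone. They form when precursors of the monocyte and macrophage lineage, kept alive by M-CSF, receive RANKL through its receptor RANK: the signal runs through TRAF adaptors, NF-kappaB and AP-1 to the transcription factor NFATc1, with help from immunoreceptors that pair with the adaptors DAP12 and FcRgamma. Precursors fuse, build an actin ring that seals a patch of bone, pump acid through a vacuolar proton pump to dissolve mineral, and secrete cathepsin K and metalloproteinases that cut the collagen left behind. Transcription factors that hold cells in a macrophage state, among them IRF8, are known to restrain this path.

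The 4 libraries held 29390211 and 34846389 mapped reads in -R and 30700087 and 30705979 in +R, as recovered from the deposited values, with 76.3 to 80.7% of them on genes. The precursor of ribosomal RNA (Rn45s) took 4.97 and 6.83% of the gene reads in -R and 10.9 and 11.1% in +R. Its part in the results was not tested, and leaving it out of the depth moved the median log2 fold change over all genes from 0.04 to 0.10. Library pairs of a group differed by a median of 0.14 on the log2 scale in both groups. Markers of other cells were low: none of the 13 B and T cell, 12 erythroid and megakaryocyte or 10 mast cell and basophil markers reached the filter, and the defining T cell gene Cd3e, the globin genes Hba-a1 and Hbb-b1 and the mast cell genes Cpa3 and Fcer1a were at 0 in all 4 libraries. Others were not, such as the B cell gene Cd79b, at 1.218 and 0.612 RPKM in -R and 0.056 and 0 in +R. Summed levels of the B and T cell list went from 2.454 and 2.032 to 0.414 and 0.498 RPKM. Those of the erythroid and megakaryocyte list went from 1.194 and 1.325 to 0.087 and 0.238 RPKM. The mast cell and basophil list went from 0.198 and 0.168 to 0.334 and 0.301 RPKM. Of 14 stromal and osteoblast markers 6 were tested and none was called, with Col1a1 at 8.32 and 7.002 RPKM in -R and 4.12 and 6.94 RPKM in +R. Of 12 neutrophil markers 4 were tested and 3 were lower in +R, with S100a8 at 10.6 and 10.5 RPKM in -R and 0.589 and 0.673 in +R, and the summed level of the list went from 21.8 and 21.8 to 1.89 and 1.95 RPKM; their part in the other falls was not tested. Of 11 dendritic cell markers 3 were tested, with Itgax higher and Kmo lower.

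Each gene was tested with limma on log2(RPKM + 0.5), so a fold change understates that of low genes, and it was called where the Benjamini-Hochberg adjusted p was below 0.05 and the change at least 2-fold. By that rule 764 genes were higher in +R, which is 6.58% of those tested, and 1053 were lower, which is 9.08%. At least 4-fold changes counted 187 genes higher and 272 lower, and at least 16-fold changes 30 higher and 21 lower. The 2 libraries of one group lay wholly above those of the other for 75.3% of all tested genes, so a lack of overlap alone says little, and an exact permutation test of 2 libraries against 2 cannot give a p below 0.333. The filter let 326 genes in through +R alone, of which 189 were called higher. It let 290 in through -R alone, of which 160 were called lower. These could hardly differ the other way. They include genes named below with a mean under 0.5 RPKM in the other group. Examples are Ctsk, Car2, Ocstamp, Itgb3 and Cd200 through +R, and Ly6c1, Ly6c2 and Fosb through -R. Their calls, and the counts of lists, families or runs of neighbours that hold them, carry that limit. In such bulk RNA, fewer cells of a type and less RNA per cell cannot be told apart.

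**Figure D1:**
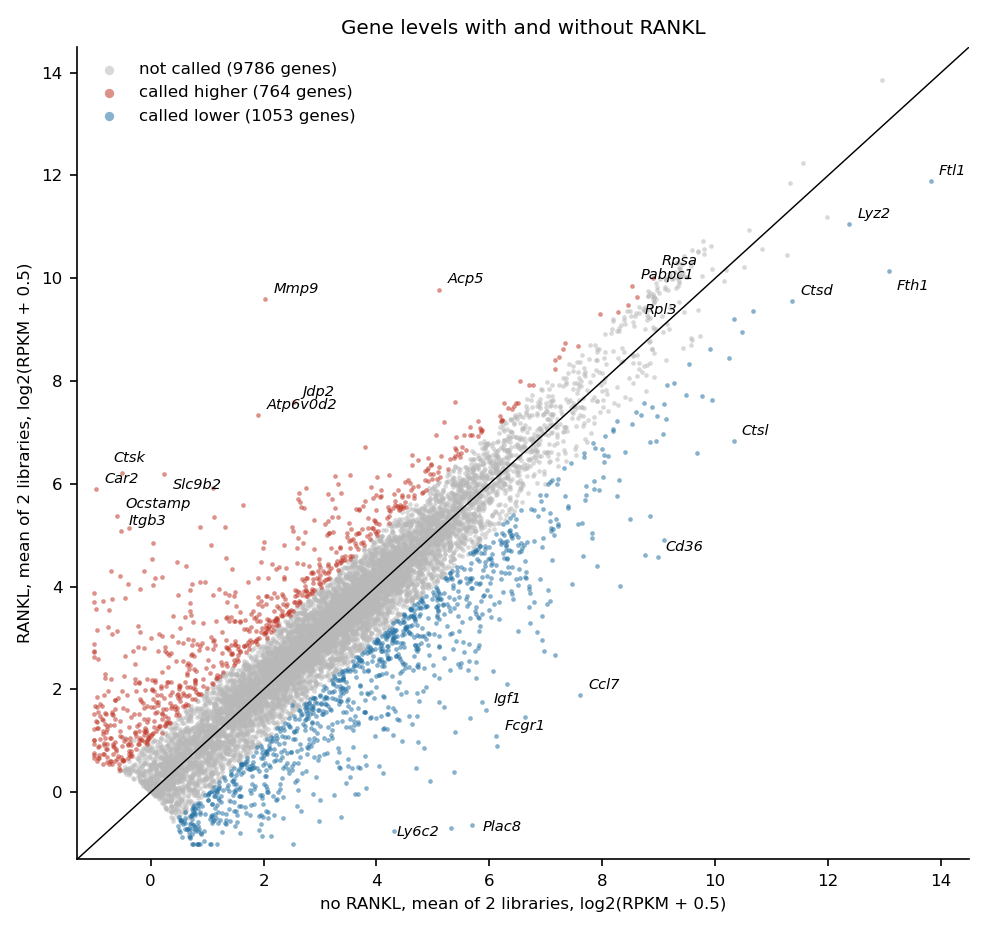
Each point is one of the 11603 tested genes, with its mean of 2 libraries as log2(RPKM + 0.5) without RANKL on the x axis and with RANKL on the y axis, and the line marks equal levels. Red points are the 764 genes called higher and blue points the 1053 called lower; Mmp9, Acp5, Jdp2 and Atp6v0d2 stand far above the line, and Ftl1 and Fth1, the most abundant genes that fell, lie below it at the right.

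Of 14 gene lists that describe the osteoclast, 282 genes in all, 271 were tested, and 84 of them (31%) were called higher and 18 (6.64%) lower, against 6.58 and 9.08% of all genes; their median log2 fold change was 0.57 against 0.04. Of 12 lists that describe monocytes and macrophages, 247 genes in all, 218 were tested, and 124 (56.9%) were called lower and 11 (5.05%) higher, with a median of -1.27. The lists were drawn up with earlier results of these data known, so the counts describe the lists and are no separate evidence. Counts given below for single lists are to be read beside the shares of all tested genes, 6.58% higher and 9.08% lower.

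**Figure D2:**
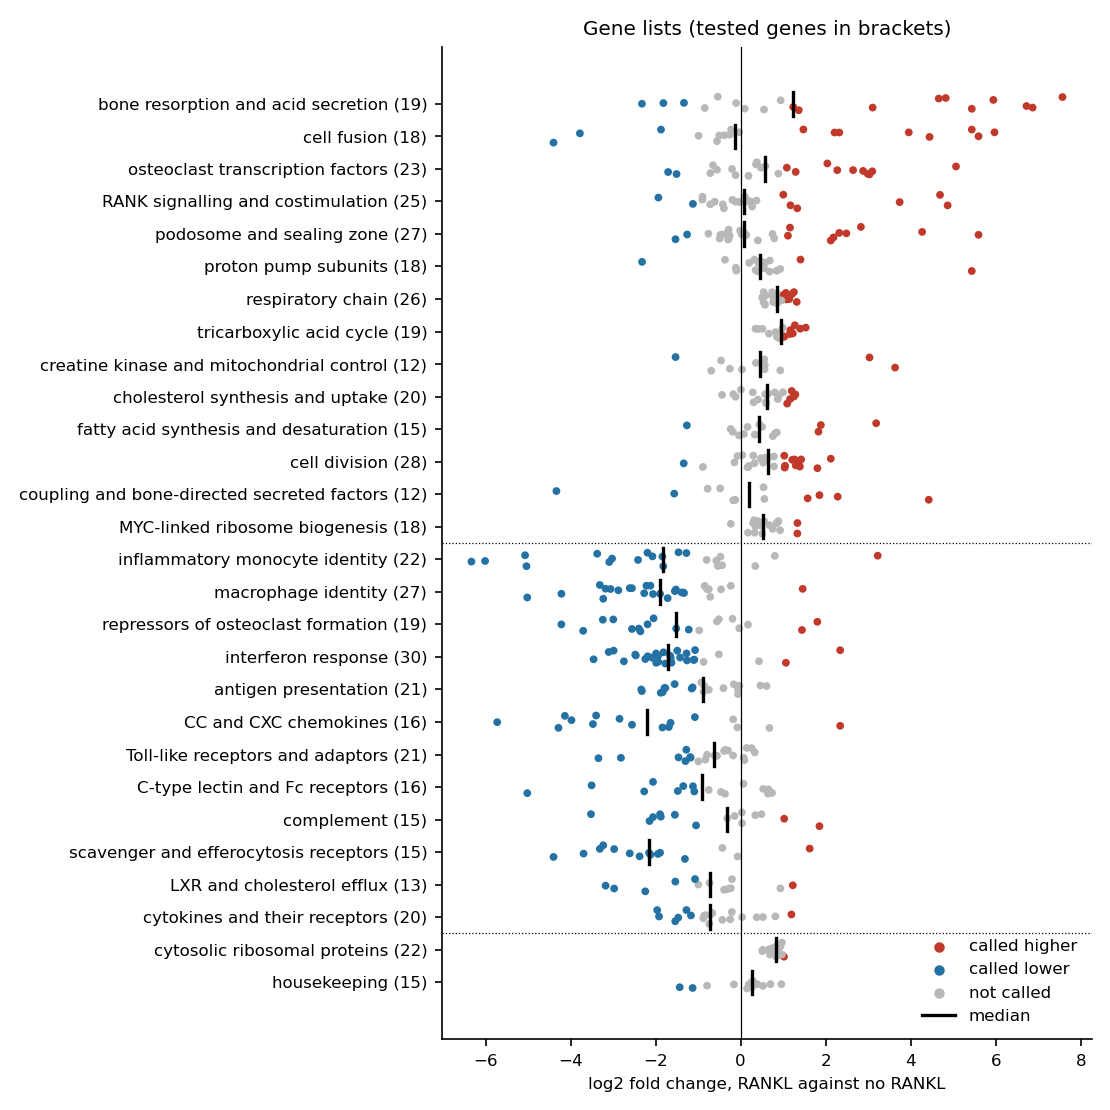
Each point is the log2 fold change, RANKL against no RANKL, of one tested gene of the list named on the y axis, with the number tested in brackets. Red points were called higher, blue lower and grey neither, and black bars are list medians; the widest spread to the right is in bone resorption (median 1.24, highest 7.57), while the inflammatory monocyte list has a median of -1.83 and reaches -6.33.

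The DNA in front of the called genes held some short motifs more often than that of other genes. Sequences of the 250 bases before each start that RefSeq gives for a gene, a mean of 1.31 starts for called-lower, 1.33 for called-higher and 1.26 for uncalled genes, were used (assembly GRCm38.p6, the same reference sequence as mm10). They covered 27025 symbols, among them 552 of the genes called higher and 788 of those called lower, and a gene counted where fixed letters stood on either strand before any of its starts. The motif of the interferon-stimulated response element, written as GAAA, 2 bases of any kind and GAAA again, stood in 8.76% of the called-lower promoters, 3.08% of the called-higher ones, 2.92% of those tested and not called, and 3.46% of all. The PU.1 motif GAGGAAGT, which the macrophage master factor binds, stood in 6.35, 3.08, 2.87 and 2.79% in the same order. The AP-1 motif TGANTCA stood in 9.77% of the called-lower and 9.24% of the called-higher promoters, against 4.82% of those not called and 7.82% of all. A kappaB motif, GGGANNTCC, stood in 8.33% of the called-higher, 6.09% of the called-lower and 5.46% of the uncalled promoters, and 4.11% of all. The E-box CACGTG stood in 10.5% of called-higher, 8.76% of called-lower, 10.4% of uncalled and 6.86% of all promoters, the cyclic AMP response element TGACGTCA in 2.17, 1.52, 3.38 and 1.77%, and the estrogen-related receptor site TNAAGGTCA in 1.27, 0.761, 0.777 and 1.3%. Matches to different motifs may overlap, and a match is a run of letters, not a bound site. The shares were not tested. With only the start nearest to that of the measured transcript, a setting chosen after seeing the data, the interferon motif stood in 7.49% of called-lower, 2.54% of called-higher and 2.54% of uncalled promoters, the PU.1 motif in 5.08, 2.54 and 2.57%, and the AP-1 motif in 8.25, 7.25 and 3.96%.

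**Figure D3:**
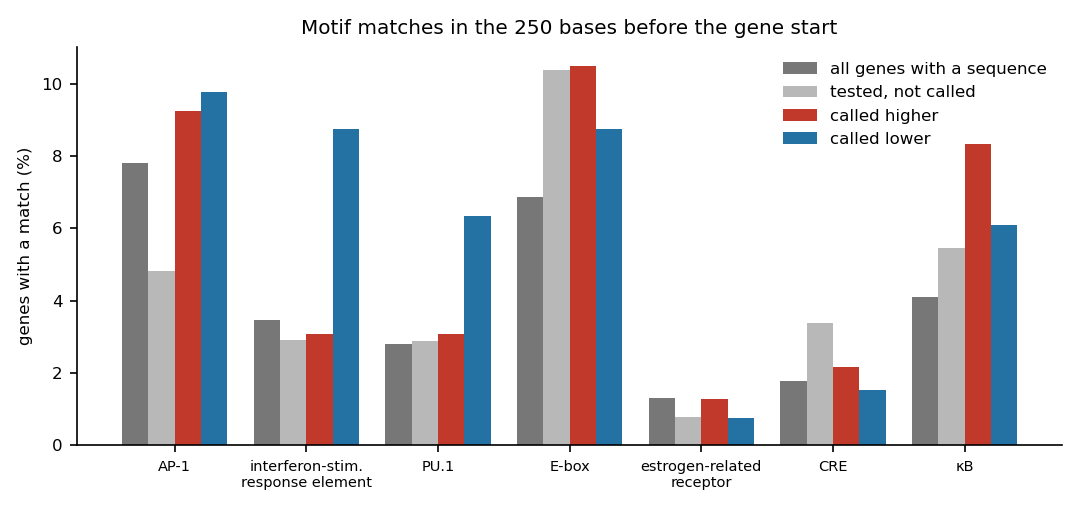
Bars give the percentage of genes with a match to each of the 7 motifs on either strand in the 250 bases before any RefSeq start of the gene, for all genes with a sequence, for tested genes not called, and for genes called higher and lower. The interferon-stimulated response element reaches 8.76% among genes called lower and 3.08% among genes called higher, while AP-1 reaches 9.77% among genes called lower and 9.24% among genes called higher.

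The interferon response list shows the contrast within a motif. Of its 23 genes with a promoter sequence 13 carried the motif. The windows of 5 that fell in +R and of Gbp3 and Cxcl10, which rose, are printed. They show that the same letters stood before genes moving either way. Gbp3 and Cxcl10 were the only genes of the list called higher, while 25 of its 30 tested genes were called lower. The windows were chosen after the values were seen. Capitals mark the motif on either strand, in mm10 coordinates and 5′ to 3′ along the gene. The RefSeq start behind each window is that of the measured transcript, or for Bst2 lies 35 bases from it.
Ifit3 (chr19:34583333-34583456, plus strand): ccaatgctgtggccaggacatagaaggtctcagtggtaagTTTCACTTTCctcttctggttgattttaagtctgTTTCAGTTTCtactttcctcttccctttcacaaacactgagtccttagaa
Stat2 (chr10:128270248-128270325, plus strand): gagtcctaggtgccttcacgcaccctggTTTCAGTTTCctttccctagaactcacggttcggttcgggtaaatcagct
Bst2 (chr8:71537547-71537642, minus strand): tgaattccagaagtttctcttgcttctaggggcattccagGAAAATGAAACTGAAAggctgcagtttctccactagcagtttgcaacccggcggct
Ifit1 (chr19:34640745-34640853, plus strand): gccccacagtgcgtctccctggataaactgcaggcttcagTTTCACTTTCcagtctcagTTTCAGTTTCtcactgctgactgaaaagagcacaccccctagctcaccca
Isg15 (chr4:156200835-156200936, minus strand): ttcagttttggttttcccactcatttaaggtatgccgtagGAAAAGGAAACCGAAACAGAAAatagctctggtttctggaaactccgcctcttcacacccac
Gbp3 (chr3:142559959-142560043, plus strand): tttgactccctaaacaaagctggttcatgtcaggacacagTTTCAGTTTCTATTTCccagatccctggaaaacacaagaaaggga
Cxcl10 (chr5:92349053-92349139, minus strand): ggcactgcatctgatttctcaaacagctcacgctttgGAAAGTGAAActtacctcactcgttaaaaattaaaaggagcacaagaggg
The AP-1 motif stood before genes that moved both ways, shown here for Prdm1, which rose, and for C3ar1, which fell. Capitals mark the motif, and these windows too were chosen after the values were seen.
Prdm1 (chr10:44458750-44458836, minus strand): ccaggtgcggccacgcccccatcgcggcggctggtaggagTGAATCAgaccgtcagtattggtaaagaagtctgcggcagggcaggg
C3ar1 (chr6:122856158-122856219, minus strand): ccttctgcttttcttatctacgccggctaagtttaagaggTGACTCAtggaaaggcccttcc

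The machinery that dissolves and digests bone gave the largest gains. Of 20 genes for resorption and acid secretion, 19 were tested; 10 rose and 3 fell. Mmp9, a secreted gelatinase (chr2:164948219-164955850 in mm10), stood at 3.66 and 3.47 RPKM in the -R libraries and at 782 and 758 RPKM in the +R libraries, a log2 fold change of 7.57 ± 0.14 (SE, n = 2 per group; limma adjusted p = 2.6e-14), the largest rise of any called gene on a transcript of 200 nt or more. Ctsk encodes cathepsin K, the collagenase of osteoclasts, and went from 0.216 and 0.182 to 83.3 and 64.3 RPKM, a log2 fold change of 6.72 ± 0.16 (adjusted p = 3.6e-13). Acp5 encodes tartrate-resistant acid phosphatase, the enzyme stained to identify osteoclasts. It was already present in -R at 33.6 and 34.8 RPKM, reached 964 and 795 RPKM in +R, and made the largest gain in RPKM of any called gene, at a log2 fold change of 4.66 ± 0.17 (adjusted p = 1.7e-11). For all 3 genes the lowest +R library was far above the highest -R library.

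Car2, carbonic anhydrase, which makes the protons, had 0.02 and 0 RPKM in -R, where the larger value is 1 read, and 60.9 and 57.0 RPKM in +R (log2 fold change 6.86 ± 0.16, adjusted p = 3.3e-13), a size that depends on the pseudocount. Slc9b2, a sodium and proton exchanger, went from 0.657 and 0.708 to 74.6 and 69.8 RPKM, and Slc4a2, the chloride and bicarbonate exchanger of the basal side, from 26.2 and 25.8 to 61.8 and 62.2 RPKM. Mmp14, a membrane metalloproteinase, rose from 1.90 and 1.41 to 60.9 and 59.3 RPKM, and the trafficking genes Rab38 and Snx10 rose by 3.10 and 1.37 on the log2 scale. The chloride channel gene Clcn7 had values of 14.6 and 16.7 RPKM in -R and 32.2 and 28.7 in +R, a log2 fold change of 0.94 ± 0.14, which stays under 2-fold although its adjusted p was 5.3e-05, and its partner Ostm1 gave 0.09 ± 0.15 (adjusted p = 0.64). The 3 that fell were the lysosomal proteases Ctsb and Ctsd and Plekhm1, a lysosome positioning gene, with log2 fold changes of -2.32 ± 0.19, -1.82 ± 0.21 and -1.33 ± 0.14.

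The proton pump itself changed by 1 subunit far more than as a whole. Of its 18 subunit genes 2 rose, 1 fell and 15 were not called, with a median of 0.44. Among all tested genes the shares were 6.58% higher and 9.08% lower. Atp6v0d2, the d2 subunit that osteoclasts use, went from 2.93 and 3.57 to 176 and 147 RPKM, a log2 fold change of 5.43 ± 0.16 (adjusted p = 1.9e-12), while its ubiquitous counterpart Atp6v0d1 had 69.9 and 72.5 RPKM in -R and 71.5 and 61.3 in +R. Thus d2 lay below d1 in both -R libraries and above it in both +R libraries, on the per-length RPKM scale. Among the a subunits, Atp6v0a1 fell from 43.3 and 43.9 to 8.06 and 8.63 RPKM (log2 -2.32 ± 0.14, adjusted p = 2.2e-09), and Tcirg1, the a3 subunit of the osteoclast border, had 145 and 122 RPKM in -R and 188 and 203 in +R, a log2 fold change of 0.55 ± 0.16 that is under 2-fold. The other call was Atp6v1d, higher by 1.41 ± 0.16.

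Fusion and adhesion genes formed a second block. Ocstamp and Dcstamp, membrane proteins that cells need to fuse, went from 0.209 and 0.118 to 43.4 and 38.6 RPKM and from 2.56 and 2.66 to 51.7 and 43.9 RPKM, with log2 fold changes of 5.97 ± 0.16 and 3.95 ± 0.15 (adjusted p = 9.4e-13 and 2.1e-11). Itgb3, the beta chain of the vitronectin receptor that grips bone, went from 0.171 and 0.214 to 38.1 and 28.4 RPKM (log2 5.59 ± 0.17, adjusted p = 1.9e-12), and its alpha chain Itgav had 38.0 and 38.2 RPKM in -R and 64.9 and 67.6 in +R, under 2-fold. The +R libraries were above the -R libraries for each of these genes. A lack of overlap, in either direction, was found for 75.3% of all tested genes. Of 19 fusion genes 18 were tested, with 8 called higher and 3 lower and a median of -0.13, so the list did not move as one. Cd200, Myo10, Nrp2 and Sh3pxd2a were higher, by 4.44, 2.32, 2.21 and 1.47 on the log2 scale, and the 3 that fell were Cd36, Pdpn and the protease Adam8, with log2 fold changes of -4.40 ± 0.18, -3.78 ± 0.21 and -1.87 ± 0.16. The tetraspanins Cd9 and Cd81 had log2 fold changes of -0.22 ± 0.20 and -0.38 ± 0.16 and were not called.

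In the podosome and sealing zone list of 27, 9 rose and 2 fell, with a median of 0.07. Of all tested genes 6.58% were called higher and 9.08% lower. Src, the tyrosine kinase needed for the ruffled border, went from 1.32 and 1.37 to 37.2 and 32.9 RPKM, a log2 fold change of 4.27 ± 0.14 (adjusted p = 4.5e-12). Dock5, an activator of Rac, and Bcar1, a Src substrate, rose by 2.83 and 2.49 on the log2 scale, and the actin-linked genes Cttn and Vcl by 2.12 and 1.11. Ptk2b, the kinase Pyk2 of podosomes, and the Rac activator Vav3 were called lower, Ptk2b going from 50.2 and 52.6 to 17.5 and 17.4 RPKM and Vav3 from 7.05 and 8.69 to 3.34 and 2.65 RPKM. The adhesion proteins talin (Tln1) and paxillin (Pxn) gave 0.07 ± 0.17 and 0.13 ± 0.14.

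**Figure D4:**
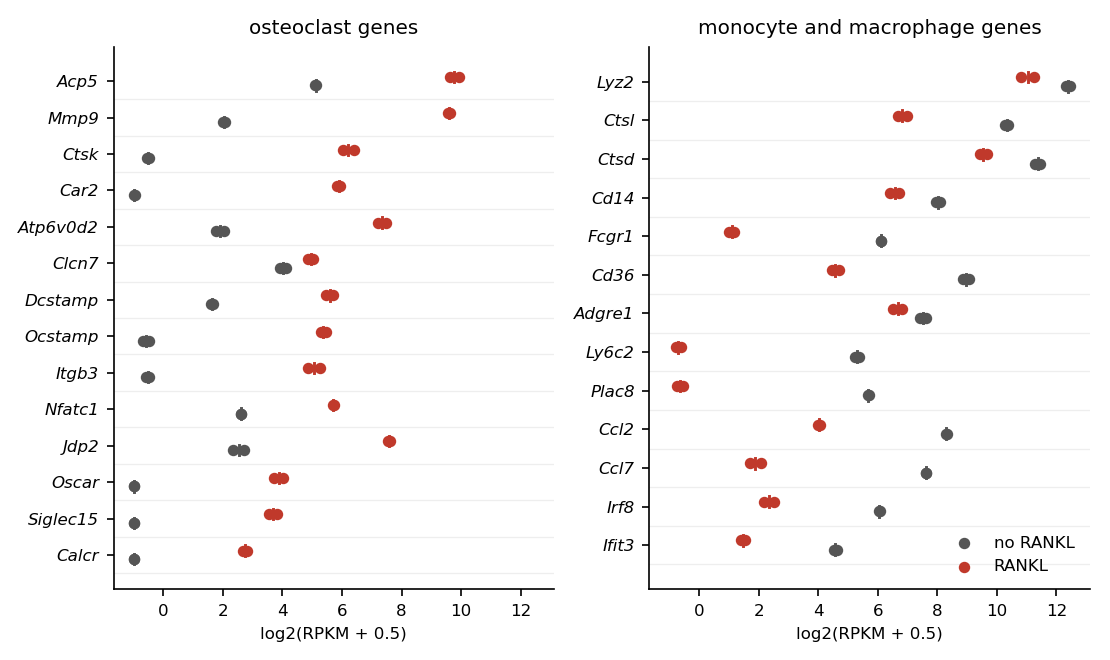
Each dot is one library, as log2(RPKM + 0.5) on the x axis, grey without and red with RANKL, and short lines are means of 2, for 14 osteoclast genes at the left and 13 monocyte and macrophage genes at the right. Libraries of a group sit close together and the groups do not overlap for any gene shown, as for 75.3% of all tested genes. Clcn7 and Adgre1, with log2 fold changes of 0.94 and -0.85, have the groups nearest to each other.

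Of 25 genes for RANK signalling and costimulation 6 rose and 2 fell, with a median of 0.08 that changed sign to -0.03 without -R replicate 1. Tnfrsf11a, RANK itself, had 60.1 and 67.8 RPKM in -R and 76.4 and 74.1 in +R, a log2 difference of 0.24 ± 0.15 (adjusted p = 0.2), and the signalling adaptor Traf6 0.27 ± 0.15 (adjusted p = 0.16). The 3 receptors that stood out were listed at 0 in both -R libraries. Oscar, a collagen receptor that signals through FcRgamma, reached 15.8 and 12.6 RPKM, at least 274-fold above what 3 reads per library would give. Siglec15, a sialic acid lectin that pairs with DAP12, reached 11.2 and 13.7 RPKM, at least 135-fold higher, and Calcr, the calcitonin receptor of mature osteoclasts, 6.54 and 5.82 RPKM, at least 227-fold higher. Rcan1, a calcineurin target that feeds back on NFAT, and the adaptors Traf2 and Traf3 were also higher, by 1.002 ± 0.16, 1.33 ± 0.14 and 1.17 ± 0.14, with Rcan1 under 2-fold without -R replicate 2 (0.93) or +R replicate 1 (0.78).

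The 2 of the list that fell are genes of costimulation that macrophages share. As a share of the list they are no more than the 9.08% of all tested genes called lower. Trem2 fell from 210.1 and 208 to 57.0 and 51.8 RPKM (log2 -1.94 ± 0.15, adjusted p = 5.0e-08), and Fcer1g, the FcRgamma chain, from 278 and 303 to 148 and 119.6 RPKM (log2 -1.12 ± 0.19), which without +R replicate 2 was -0.97 and under 2-fold. Tyrobp, which encodes DAP12, had 543 and 532 RPKM in -R and 536 and 453 in +R, at a log2 fold change of -0.12 ± 0.19 (adjusted p = 0.62). Csf1r, the receptor for M-CSF, had 337 and 339.9 RPKM in -R and 217 and 195 in +R, below its -R level in both libraries but under 2-fold.

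Transcription factors of the osteoclast were led by Jdp2, an AP-1 family partner, which went from 6.05 and 4.56 to 188 and 196 RPKM (log2 5.06 ± 0.16, adjusted p = 3.2e-12). Nfatc1, the master factor, went from 5.60 and 5.62 to 51.1 and 52.4 RPKM (log2 3.10 ± 0.13, adjusted p = 8.1e-11). Of the 23 genes of the list 10 rose and 2 fell, with a median of 0.58. Prdm1 and Bhlhe40, repressors that act against macrophage factors, rose by 2.99 and 2.88. In the non-canonical NF-kappaB arm Nfkb2 went from 11.4 and 10.8 to 68.9 and 75.3 RPKM and Relb from 3.54 and 2.95 to 16.3 and 18.8 RPKM, whereas Rela of the canonical arm had 22.5 and 23.5 RPKM in -R and 21.3 and 18.6 in +R (log2 -0.20 ± 0.14) and Nfkb1 a log2 fold change of 0.58 ± 0.13, under 2-fold.

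AP-1 members parted. Fosl2 and Junb rose by 2.04 ± 0.13 and 1.29 ± 0.15, while Jun fell from 48.7 and 52.8 to 16.0 and 14.4 RPKM (log2 -1.71 ± 0.14, adjusted p = 8.9e-08) and Fosl1 from 5.69 and 5.05 to 1.65 and 1.48 RPKM. Fos itself, required early in the pathway, had 66.0 and 71.3 RPKM in -R and 82.0 and 74.3 in +R at this time, at a log2 fold change of 0.18 ± 0.15 (adjusted p = 0.35). Atf3, a stress-induced member of the wider family, was among the 15 largest falls, from 47.7 and 52.2 to 2.56 and 1.85 RPKM, and Fosb, named after its values were seen, had 1.44 and 1.42 RPKM in -R and 0.018 and 0.018 in +R. Mitf, Spi1, Tfe3 and Tfeb, which set up lysosomal and lineage genes, stayed under 2-fold, at 0.48 ± 0.13, 0.38 ± 0.16, -0.65 ± 0.13 and -0.71 ± 0.15. Tfec was called higher. That call was lost with a pseudocount of 1 (log2 0.99), without +R replicate 1 (0.99) and without -R replicate 1.

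Genes for mitochondrial respiration moved together but by little. All 26 tested genes of the respiratory chain had an adjusted p below 0.05 in the direction of +R, against 23.9% of all genes, and 10 were past 2-fold, a count that was 6 without +R replicate 1; the median was 0.85. Of 19 genes of the tricarboxylic acid cycle 18 passed the adjusted p and 7 were past 2-fold, 11 without +R replicate 2, with a median of 0.94. Idh3a, a rate-setting dehydrogenase of the cycle, went from 21.6 and 22.8 to 67.1 and 62.8 RPKM, and Uqcrfs1, the iron-sulfur protein of complex III, from 41.9 and 40.6 to 112 and 95.8 RPKM. Ppargc1b, a coactivator of mitochondrial biogenesis, rose by 3.03 ± 0.18 (adjusted p = 3.0e-09). Of 12 tested genes of creatine kinases and mitochondrial control Ppargc1b and Ckmt1 were higher and Gatm was lower. Ckmt1, mitochondrial creatine kinase, was at 0 in both -R libraries and at 6.32 and 5.12 RPKM in +R, at least 91.6-fold higher, while Gatm, which makes the precursor of creatine, fell by 1.53 on the log2 scale.

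These shifts have to be read beside a general one in translation genes. Of 22 listed cytosolic ribosomal protein genes 21 had an adjusted p below 0.05 with higher values in +R, with a median of 0.83, although Rpl3 alone of this list passed 2-fold. Under quantile normalization that median was 0.45 and no gene of the list was called, whereas the respiratory chain median was 0.89 under the same setting. Translation genes, on the list or not, made 3 of the 5 largest gains in RPKM among called genes. Pabpc1, the poly(A)-binding protein, went from 327 and 412 to 927 and 925 RPKM. Rpsa, a ribosomal protein gene that is not on the list, went from 479.6 and 473 to 1028 and 1034 RPKM. Rpl3 went from 411 and 371 to 789.7 and 791 RPKM. Rpsa and Rpl3 were under 2-fold with quantile normalization, at log2 0.74 and 0.88, and Rpl3 also without -R replicate 2, at 0.94. Both have many processed copies, with 31.1 and 79.4% of their 100-base windows present in another annotated gene, so their counts are uncertain. Of 18 ribosome biogenesis genes linked to MYC, Dkc1 and Npm1 were called higher and none lower, beside 6.58 and 9.08% of all tested genes.

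Of 20 tested genes of cholesterol synthesis and uptake 5 rose, among them the farnesyl synthase Fdps (1.29 ± 0.14), which nitrogen-containing bisphosphonates inhibit, and none fell; the count was 3 without -R replicate 1. In fatty acid synthesis 3 of 15 rose and Me1, malic enzyme, fell by 1.27 on the log2 scale. Scd2, a desaturase, led with 5.62 and 5.82 RPKM in -R and 53.5 and 58.8 in +R (log2 3.19 ± 0.14, adjusted p = 1.2e-10), and Acsl1 and Acsl3 followed with 1.89 ± 0.14 and 1.83 ± 0.15.

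Of 28 cell division genes 11 rose and 1 fell, with a median of 0.64. Without -R replicate 1, Aurka, Ccna2 and Top2a were under 2-fold, at log2 0.96, 0.88 and 0.82. Without +R replicate 1, Aurka, Plk1 and Top2a were under 2-fold, at 0.94, 0.95 and 0.92. Plk1 was at 0.99 without -R replicate 2. Ccnb2 and Cdc20, which drive and end mitosis, went from 7.38 and 8.70 to 40.1 and 33.2 RPKM and from 15.4 and 15.3 to 56.5 and 53.4 RPKM. The mitotic kinases Aurkb and Cdk1 were not called, with 0.65 ± 0.14 and 0.78 ± 0.15. The replication licensing genes Mcm2 to Mcm7 were not called either, with Mcm2 at -0.08 ± 0.15 and Mcm7 at 0.78 ± 0.16, and the replication clamp Pcna fell from 411 and 407 to 176 and 148 RPKM (log2 -1.34 ± 0.17, adjusted p = 1.1e-05).

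Of 19 secreted factors through which osteoclasts act on bone 12 were tested, 4 rose and 2 fell. Vegfc, a lymphatic growth factor, went from 0.109 and 0.138 to 15.8 and 10.5 RPKM (log2 4.42 ± 0.18, adjusted p = 4.9e-11), and Sphk1, which makes sphingosine 1-phosphate, from 0.039 and 0.065 to 2.39 and 1.99 RPKM. Igf1 went the opposite way, from 56.1 and 65.0 to 2.15 and 2.94 RPKM (log2 -4.33 ± 0.15, adjusted p = 1.2e-11), one of the 15 largest falls. S1pr1, the receptor through which precursors follow sphingosine 1-phosphate out of bone, fell from 41.1 and 42.0 to 1.71 and 1.77 RPKM (log2 -4.23 ± 0.16, adjusted p = 2.9e-11), and S1pr2, named after its values were seen, by 1.54 on the log2 scale. Htra1, a secreted protease, Slc6a12, a betaine and GABA transporter, and Mt3, a metallothionein, were also among the 15 largest rises, with 0.487 and 0.566, 0.179 and 0.353 and 0.128 and 0.108 RPKM in -R against 31.7 and 25.1, 39.9 and 29.7 and 21.7 and 16.7 RPKM in +R.

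The lost programme began with monocyte identity. Of 25 genes of inflammatory monocytes 22 were tested; 14 fell, 1 rose and 7 were not called, with a median of -1.83, or -1.96 with Chil3, which was at 0 in both +R libraries, set at its bound. Plac8 stood at 50.8 and 51.4 RPKM in -R and 0.189 and 0.095 RPKM in +R, a log2 fold change of -6.33 ± 0.16 (adjusted p = 5.1e-13), the largest fall of any called gene. Ly6c2, the surface antigen that defines these monocytes, went from 37.5 and 41.3 to 0.08 and 0.159 RPKM and its neighbour Ly6c1 from 19.3 and 19.7 to 0.155 and 0.039 RPKM, with log2 fold changes of -6.01 ± 0.17 and -5.07 ± 0.23. The pair share 15.8 and 15.3% of their 100-base windows, so each count may hold some reads of the other. For all 3 genes each +R library held 1 to 4 reads. Ccr2, the receptor that draws monocytes to CCL2, fell from 38.7 and 51.4 to 9.54 and 9.21 RPKM, and Cd14 from 275 and 246 to 105 and 84.5 RPKM. Vcan, a matrix proteoglycan, was the member that rose, from 1.19 and 1.47 to 18.5 and 14.8 RPKM, and S100a4 was higher in +R without reaching 2-fold (0.80 ± 0.21).

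Macrophage identity followed, with 20 of 27 tested genes lower, 1 higher and a median of -1.90. Fcgr1, the high-affinity Fc receptor, went from 68.3 and 69.2 to 1.51 and 1.77 RPKM (log2 -5.02 ± 0.14, adjusted p = 1.1e-12), and Siglec1, the sialoadhesin of resident macrophages, from 111 and 138 to 5.29 and 7.19 RPKM (log2 -4.22 ± 0.19). Folate receptor Folr2 and apolipoprotein Apoe fell by 3.06 and 3.18 on the log2 scale. The loss was uneven. Adgre1, which encodes the F4/80 antigen, had 172 and 196 RPKM in -R and 113 and 91.5 in +R (log2 -0.85 ± 0.17), and Cd68 -0.79 ± 0.19, both lower in each +R library but under 2-fold. With quantile normalization Cd68 was past 2-fold, at -1.08. Spic, a red pulp macrophage factor, was the one called higher, at 0.108 and 0.068 RPKM in -R and 1.09 and 1.14 in +R, and it was under 2-fold with a pseudocount of 1 (log2 0.96).

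Factors known to restrain osteoclast formation were mostly in the fallen group, 11 of 19 tested against 2 higher, with a median of -1.52. Irf8 went from 66.9 and 65.2 to 4.07 and 5.21 RPKM (log2 -3.70 ± 0.15, adjusted p = 4.2e-11). The inhibitors of differentiation Id1, Id2 and Id3 fell by 4.22, 2.39 and 2.05 on the log2 scale, and Klf2 and Cebpa by 3.24 and 2.19. The 2 that rose, Nfkbia (11.2 and 13.5 to 36.3 and 53.5 RPKM) and Tnfaip3 (2.04 and 2.08 to 6.91 and 6.04 RPKM), are feedback inhibitors that NF-kappaB itself induces. Bcl6, which Prdm1 is known to repress, fell from 23.4 and 24.3 to 7.97 and 8.04 RPKM. The groups did not overlap for any gene given here, which also held for 75.3% of all tested genes.

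The interferon response list held 30 genes, all tested, of which 25 fell and 2 rose, with a median of -1.72. Irf7, the factor that amplifies type I interferon, went from 469 and 446 to 39.98 and 42.4 RPKM (log2 -3.46 ± 0.15, adjusted p = 7.9e-11), the largest fall of the list. Ifit3, whose promoter window held 2 copies of the motif, fell from 22.8 and 24.0 to 2.14 and 2.43 RPKM (log2 -3.10 ± 0.15), with 31.7% of its 100-base windows also in Ifit3b. Stat2, which carries the interferon signal, fell by 2.24 on the log2 scale. Receptor genes of the cytokine list split: Ifngr1, for interferon gamma, rose from 20.1 and 20.2 to 51.6 and 42.3 RPKM while Ifnar2, for type I interferon, had -0.88 ± 0.15 and Ifnar1 0.03 ± 0.14, neither called.

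Cxcl10 and Gbp3 were the exceptions. Cxcl10, an interferon-induced chemokine, went from 6.07 and 5.09 to 31.1 and 29.2 RPKM (log2 2.34 ± 0.14, adjusted p = 2.9e-09). Gbp3, a guanylate-binding protein, went from 2.07 and 1.81 to 4.65 and 4.52 RPKM (log2 1.06 ± 0.16), a change that was 0.99 without -R replicate 2 and 0.93 with a pseudocount of 1, both under 2-fold. In its family, looked at after these values were seen, 4 of 7 tested genes rose (Gbp3, Gbp5, Gbp7 and Gbp8) and none fell. Gbp5 and Gbp8 passed the filter through +R alone. In the Oas family, sensors of double-stranded RNA, 6 of 8 fell and none rose. Gbp7 went from 1.74 and 2.08 to 8.23 and 8.13 RPKM, but Gbp genes share sequence and 10.2% of its 100-base windows are found in another gene.

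Most chemokine genes fell. Of 16 tested 12 were lower and Cxcl10 was the 1 called higher, with a median of -2.20. Ccl7 and Ccl2, which recruit monocytes, went from 195 and 194 to 3.69 and 2.75 RPKM and from 311 and 321 to 15.4 and 16.1 RPKM, with log2 fold changes of -5.73 ± 0.15 and -4.28 ± 0.16 (adjusted p = 5.1e-13 and 1.7e-11). Ccl6 and Pf4 fell by 4.13 and 3.98. Ccl9, known as a chemokine of osteoclasts, had 462 and 457 RPKM in -R and 471 and 402 in +R (log2 -0.08 ± 0.18, adjusted p = 0.76).

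Receptors for microbes and debris were lower to different degrees. Among 15 tested scavenger and efferocytosis receptors 12 fell and 1, Mfge8, rose, with a median of -2.16. Cd36, a receptor for oxidised lipid, went from 468 and 541 to 25.5 and 21.4 RPKM (log2 -4.40 ± 0.18, adjusted p = 4.1e-11), and Axl and Mertk, which take up dying cells, fell by 3.23 and 2.61 on the log2 scale. Of 21 genes of Toll-like receptors and their adaptors 7 fell and none rose, and the receptors named here differed. Tlr13 and Tlr8, which sense RNA, went from 138 and 129 to 14.2 and 11.3 RPKM and from 41.1 and 51.6 to 6.25 and 5.96 RPKM. Tlr4 fell by 1.18 on the log2 scale, and Tlr2 (0.26 ± 0.16) and Tlr9 (0.14 ± 0.17) were not called. In the Fc and C-type lectin receptor list 8 of 16 fell and none rose, and the complement list had 7 of 15 lower, led by the anaphylatoxin receptor C3ar1 (232 and 249.7 to 21.2 and 19.9 RPKM), and 2 higher, C3 and Itgax. Itgax was under 2-fold without -R replicate 1 (log2 0.88) and without +R replicate 1 (0.67).

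Of 21 tested genes of antigen presentation 9 fell and none rose, with a median of -0.87, and both classes were among them. H2-Ab1 and H2-Eb1, class II chains, went from 12.3 and 11.1 to 2.45 and 1.51 RPKM and from 19.6 and 20.7 to 3.25 and 3.92 RPKM, and the invariant chain Cd74 fell by 1.55 on the log2 scale. Their activator Ciita was below the filter. The class II loading genes H2-DMa and H2-DMb1 were not called, at -0.93 ± 0.14 and -0.75 ± 0.18, with H2-DMa at -1.03 without -R replicate 2. Of class I, H2-T23, H2-Q7 and the light chain B2m fell by 1.83, 1.15 and 1.13 on the log2 scale, with H2-Q7 lying over H2-Q9 in the table and B2m at -0.99 without +R replicate 2. H2-K1 and H2-D1 had log2 fold changes of -0.87 ± 0.13 and -0.86 ± 0.17, under 2-fold, and the immunoproteasome gene Psmb8 -0.03 ± 0.16. With quantile normalization H2-D1 was past 2-fold, at -1.13.

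In the cytokine list 6 of 20 tested genes fell and 1, Ifngr1, rose, with a median of -0.72; Tnf had 6.28 and 5.33 RPKM in -R and 2.79 and 1.88 in +R (log2 -1.17 ± 0.17, but -0.93 without +R replicate 2), and both TNF receptors were lower in +R, Tnfrsf1b by 1.96 and Tnfrsf1a, not called, at -0.67 ± 0.14. Of 13 tested genes of LXR and cholesterol efflux 5 fell, Apoe and Rxra among them, and 1, Pltp, rose, with a median of -0.73.

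Among called genes, the largest losses in amount were of iron storage and lysosomal genes. Ftl1 and Fth1, the ferritin chains, went from 14676 and 14241 to 3957 and 3599 RPKM and from 8326 and 8932 to 1215 and 1039 RPKM, with log2 fold changes of -1.94 ± 0.27 and -2.94 ± 0.23 (adjusted p = 3.1e-05 and 7.1e-08). Ftl1 shares 78.6% of its 100-base windows with other annotated genes, mainly the copy Ftl1-ps1, and Fth1 0.964%, so the Ftl1 value is the less certain. Lyz2, lysozyme, went from 5062 and 5571 to 2448 and 1815 RPKM (log2 -1.33 ± 0.24, adjusted p = 3.9e-04), and was below 2-fold, at log2 -0.75, after quantile normalization. With no filter on low values the adjusted p of Ftl1 was 0.185 and that of Lyz2 0.122, at the same log2 fold changes.

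Cathepsins show the exchange within one family, set out after their values were seen. Of 12 tested, Ctsk and Ctsf rose and 7 fell. Ctsl went from 1249 and 1317 to 126 and 101 RPKM (log2 -3.50 ± 0.20, adjusted p = 1.5e-09), Ctsd from 2485 and 2800.4 to 813 and 688 RPKM and Ctsb from 916 and 1051 to 221 and 174 RPKM, while Ctsk rose to 83.3 and 64.3 RPKM. Even so, on the per-length scale Ctsb and Ctsd were above Ctsk in each +R library, and Ctsl above it too. Exons of Ctsl lie under annotated exons of the opposite strand over 1742 bases, and exons of Ctsb over 774 bases, and reads were counted on either strand. Ctsd shares 35.0% and Ctsb 14.54% of 100-base windows with another annotated gene, so these 3 levels are less certain than that of Ctsk, which shares none. Matrix metalloproteinases parted in the same way, with Mmp9 and Mmp14 higher and Mmp8, Mmp12, Mmp13 and Mmp27 lower among 8 tested.

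Several of the fallen genes were neighbours. Runs of at least 4 adjacent tested genes that were called the same way were sought after the calls were known, leaving aside transcripts under 200 nt; there were 18 such runs with 87 genes, and 17 of them were lower in +R. With genes whose spans overlap taken as 1 locus, which was done after seeing the data, 15 runs of at least 4 loci were left, 14 of them lower. The longest held 10 entries at chr11:114890041-115181178 (mm10), with 9 of Cd300 receptors, leukocyte immunoglobulin-like proteins, and Slc9a3r1, at log2 fold changes from -3.69 to -1.35. Cd300ld4 and Cd300ld5 have the same coordinates in the table, so the run holds 9 separate loci. Cd300ld3 has 80.9% of its 100-base windows in another gene, so its count is uncertain. The next held 8 genes at chr19:11047612-11604804, with all 7 tested members of the Ms4a family, 4-span membrane proteins, at log2 fold changes from -5.04 to -2.41, and AW112010 beside them; Ms4a6c shares 51.3% of its windows with another gene. Ms4a4c went from 42.0 and 39.8 to 0.437 and 1.20 RPKM (log2 -5.04 ± 0.22, adjusted p = 1.0e-10). The Schlafen genes Slfn8 to Slfn4 on chromosome 11, the Cxcl genes Pf4 to Cxcl2 on chromosome 5, the metalloproteinases Mmp13 to Mmp27 on chromosome 9 and the class II genes from H2-Ab1 on to Gpsm3 on chromosome 17 formed others. Of these, Cxcl1, Cxcl2, Cxcl3, Mmp8, Mmp13 and Mmp27 passed the filter through -R alone, as did Cd300lf, Ms4a4a and Ms4a4b above. Such genes could hardly be called higher, which limits what these runs show. Cxcl1 was also under 2-fold with a pseudocount of 1 (log2 -0.72) or without -R replicate 1 (-0.76), which breaks its run of 4. Slfn1 went from 31.4 and 29.5 to 0.552 and 0.776 RPKM (log2 -4.74 ± 0.16, adjusted p = 7.8e-12).

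The single run that rose spanned Tet2, Cenpe, Bdh2 and Slc9b2 at chr3:133463677-135342767. Their log2 fold changes ran from 1.12 for Cenpe, a mitotic motor, to 5.94 for Slc9b2. Tet2, a DNA demethylase, was at 2.60 and 2.97 RPKM in -R and 6.54 and 7.57 in +R.

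**Figure D5:**
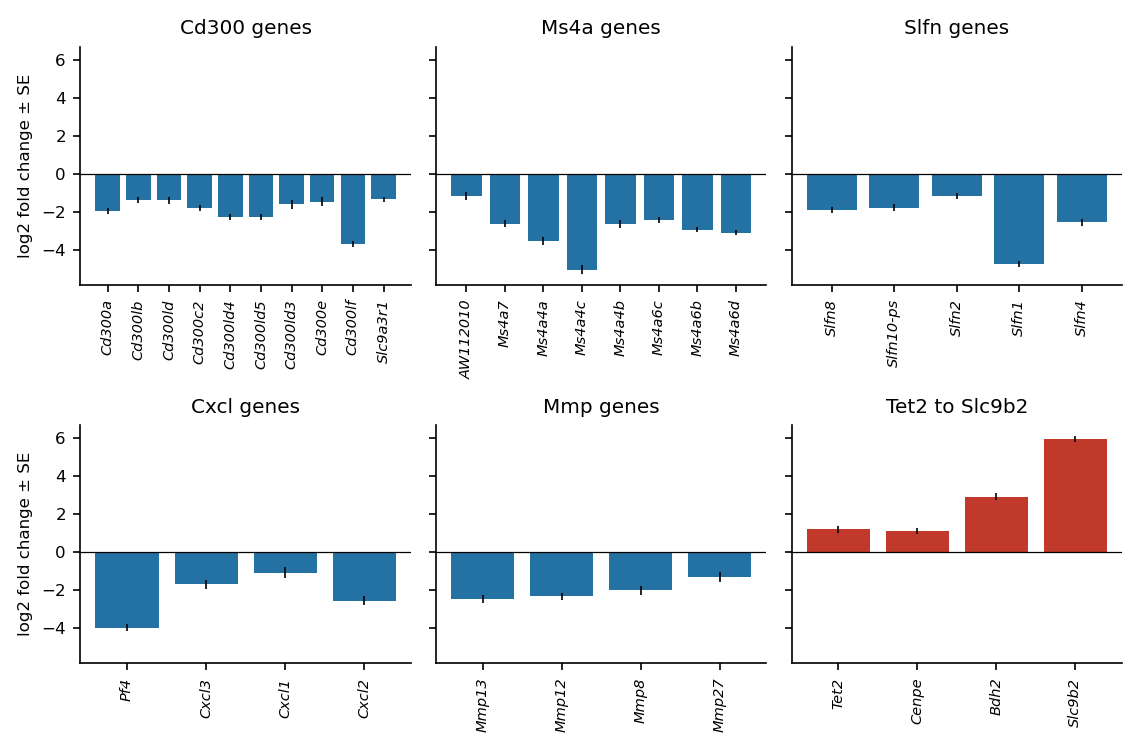
Bars are log2 fold changes, RANKL against no RANKL, with the standard error, for neighbouring tested genes in their order along the chromosome in 6 of the 18 runs, with Cd300ld4 and Cd300ld5 drawn apart although they are 1 locus. All bars of the Cd300, Ms4a, Slfn, Cxcl and Mmp runs point down, deepest for Ms4a4c at -5.04 and Slfn1 at -4.74, and those of the Tet2 to Slc9b2 run point up. Cxcl1, Cxcl2, Cxcl3, Mmp8, Mmp13 and Mmp27 passed the filter only through the libraries without RANKL, so their bars could hardly point up. The call of Cxcl1 was lost with a pseudocount of 1 (log2 -0.72).

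Among the remaining largest falls, Rgs1, a brake on chemokine receptors, went from 66.7 and 72.6 to 1.80 and 0.935 RPKM, Hal, histidine ammonia-lyase, from 99.1 and 98.3 to 1.89 and 2.59 RPKM, and Npy, neuropeptide Y, from 143 and 144 to 6.01 and 5.72 RPKM, with adjusted p of 1.2e-11, 1.5e-12 and 1.9e-12. Every +R library lay far below both -R libraries for these genes.

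At the limits of detection, 49 called-higher genes had at most 3 reads in each -R library, 24 of them on transcripts of 200 nt or more, and 33 called-lower genes had at most 3 reads in each +R library, 8 of them on such transcripts. These examples were chosen after their values were seen. Rufy4, an adaptor in autophagy, was at 0 in both -R libraries and at 6.79 and 6.98 RPKM in +R, at least 168-fold higher. Mst1r, a receptor tyrosine kinase, had 0.038 and 0 RPKM in -R and 9.12 and 7.72 in +R, and Slc6a4, the serotonin transporter, 0.025 and 0.021 RPKM in -R and 6.69 and 4.35 in +R. In the other direction S100a9, an alarmin of neutrophils and monocytes, had 5.93 and 4.50 RPKM in -R and 0 in both +R libraries, at least 27.6-fold lower, and Chil3, a chitinase-like protein, 1.18 and 1.35 RPKM and 0, at least 19.8-fold lower. A value of 0 allows up to 3 reads by counting error alone and does not show that the gene was silent.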

How the data were processed

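RNA of 6 cultures (2 each of no RANKL, RANKL, and RANKL with leaf extract) was sequenced by the authors as 100-base paired ends. Values are RPKM, deposited by the authors as made with HOMER over exons of the mm10 genome, either strand counted; the file's header calls them FPKM. The study names TopHat and the submitters' processing notes HISAT2, with no versions. Whole reads and depths were recovered from the RPKM steps (100% of checked values whole within 0.15 reads).

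Genes whose average across the 4 compared libraries reached 0.5 RPKM were tested with limma 3.58.1 in R 4.3.3 (variance trend, all 6 libraries fitted, contrast RANKL minus no RANKL) on log2(RPKM + 0.5); p-values were Benjamini-Hochberg adjusted over 11603 genes. The spread of a gene drew on 3 residual degrees of freedom of its own and 11.8 borrowed from the trend over all genes. Standard errors are thus not the scatter of that gene's own libraries alone. Adjusted p-values and standard errors in the text come from this fit, and its settings were tested on simulated data. The simulation drew reads around the -R means with a fixed spread and changed only genes well above the filter. It therefore cannot check the p-values of these data or of low genes. Where a group was at 0, a bound was taken from 3 reads per library. All 26 gene symbols turned into dates in the file were restored.

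Members, gene lists and tests were chosen with earlier results of these data known. Named genes were the 15 largest rises and 15 largest falls among called genes on transcripts of at least 200 nt, the 5 largest gains and 5 largest losses in mean RPKM, and list members; other names were chosen after their values were seen. Windows of 100 bases of annotated transcripts shared with another gene gave the sharing percentages. Promoters came from RefSeq (GRCm38.p6). Alternatives covered pseudocount, filter, scaling, voom on recovered reads, the replicate block and leaving out each library, and, added after seeing the data, the nearest RefSeq start and overlapping genes taken as 1 locus. The authors' leaf extract comparison is not reported here. A few genes that the rule names are not reported here.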

Additional observations from a re-analysis of the deposited data

How the results depend on the processing

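Over the alternatives run, the number of genes higher with RANKL ranged from 626 (pseudocount of 1) to 909 (pseudocount of 0.1) and the number lower from 898 (pseudocount of 1) to 1252 (voom on the recovered reads), against 764 and 1053. Each alternative shared between 83.9 and 100% of the calls, and 0 genes were called in the opposite direction. Leaving out 1 library at a time gave 746 to 847 higher and 1027 to 1097 lower genes, 75 to 94 higher genes of the osteoclast lists and 122 to 125 lower genes of the monocyte and macrophage lists; with 1 library left in a group, that library is assumed to vary like the others. With the replicate block the counts were 766 and 1056. The labels do not say that equal replicate numbers are paired. Deviations of same-numbered libraries correlated at -0.0559 between the compared groups, with only 2 pairs. They correlated at 0.25 between RANKL and RANKL with leaf extract, and at 0.12 between no RANKL and RANKL with leaf extract. Leaving Rn45s out of the depth moved the share of calls that were higher from 42.0 to 46.7%. List medians changed sign in these cases: RANK signalling, which ran from -0.0309 without no RANKL replicate 1 to 0.183 without no RANKL replicate 2, coupling factors to -0.021 and stromal markers to 0.0037 with no filter on low values, and dendritic cell markers to 1.02 with a minimum mean of 1 RPKM and 0.26 with the filter over all 6 libraries. List counts that moved by over 1.5 times on leaving out a library were, beside those given in the report, genes higher in the interferon list (1 without no RANKL replicate 2) and the complement list (1 without no RANKL replicate 1 or RANKL replicate 1), and single calls gained in the LXR (2 without no RANKL replicate 1), cytokine (2 without RANKL replicate 2) and ribosomal protein lists (2 without no RANKL replicate 1 or RANKL replicate 2, 0 without no RANKL replicate 2); of 15 housekeeping genes 2 fell, and 1 of them, B2m, was at -0.99 without RANKL replicate 2. Neutrophil markers called lower went from 3 to 5 with no filter. The cause was not tested. Depth limits the low genes, since 49 higher and 33 lower calls rest on at most 3 reads per library in one group.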
